A study of Mus musculus with 23 samples.

Results

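Of 47187 elements made by joining the H3K4me2 enhancer regions of 3 mouse cortical subregions, 1756 carried H3K4me2 in all 3 subregions and H3K27ac in only 1 of them. H3K4me2 (dimethylation of lysine 4 of histone H3) and H3K27ac (acetylation of lysine 27) had been mapped by chromatin immunoprecipitation and sequencing in 4 dissected areas of C57BL6J mice at postnatal day 56. The areas were the anterior cingulate (ACC) and retrosplenial cortex (RSC) and, in the entorhinal cortex, its lateral (LEC) and medial (MEC) division. Of 23 samples, ChIP libraries came in 2 per area and mark (MEC H3K4me2 had 1), and every area had 2 inputs, which were not used. The labels name no treatment or transgene, and they do not say whether libraries came from separate animals or of which sex. The tissue held all its cell types, so that fewer cells with a mark and less of the mark per cell cannot be told apart. The data are 1 deposited list of enriched regions per subregion, mark and kind (a full list and an enhancer list within it), with no values per library, so no value below has a replicate error.

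The 1756 elements were chosen by the positions of H3K4me2 and H3K27ac regions in ACC, RSC and LEC. The H3K4me2 enhancer regions of ACC, RSC and LEC were merged wherever they overlapped by at least 1 bp, and the 13987 elements with a contribution from all 3 were kept. An element was then retained when it overlapped an H3K27ac enhancer region of exactly 1 of the 3 subregions and no region of the full H3K27ac lists of the other two. Elements are called ACC-active, RSC-active or LEC-active after the subregion with H3K27ac. The name states where the acetylation was listed, and enhancer activity itself was not measured. The lists of these 3 subregions chose the elements, so their values are given as descriptions without a test. MEC had no part in the choice.

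Enhancers and promoters can carry H3K4me2 in use or at rest, and an enhancer that carries it without H3K27ac is commonly called primed. H3K27ac is deposited by the acetyltransferases CBP and p300, and it goes with an enhancer being in use. An element with H3K4me2 in several tissues and H3K27ac in only some of them is therefore often read as an enhancer that is accessible in all and used in some. ACC and RSC lie along the midline, and RSC is known for its part in navigation and spatial memory. LEC and MEC are the divisions of the entorhinal cortex, which carries signals between neocortex and hippocampus. MEC is known for grid cells, and LEC for coding of objects and odours.

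ACC-active elements were the most numerous and RSC-active ones the fewest. There were 871 ACC-active, 576 LEC-active and 309 RSC-active elements, which together were 12.6% of the 13987. Over all 13987 elements, the ACC H3K27ac enhancer list overlapped 63.9%, the LEC list 60.2% and the RSC list 55.0%. H3K27ac was listed in all 3 subregions at 5241 elements, in exactly 2 at 3120 and in none at 2612. Another 1258 elements differed between the full and the enhancer lists of a subregion and fell in no class.

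Among elements with H3K27ac of ACC, 9.75% (9.15 to 10.4) had it in ACC alone. The share was 6.84% (6.32 to 7.40) in LEC and 4.01% (3.60 to 4.48) in RSC. Brackets after percentages hold Wilson 95% intervals, which cover counting error and nothing of the variation between animals. The lists differed in length, with 27909 H3K27ac enhancer regions in ACC, 24272 in RSC and 22973 in LEC. When each list was reduced to its widest regions at the length of the shortest, LEC-active elements became the most numerous at 723, against 580 in ACC and 366 in RSC. RSC-active elements stayed the fewest in all 7 alternative definitions, and the ACC lead over LEC held in 6 of them.

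**Figure D1:**
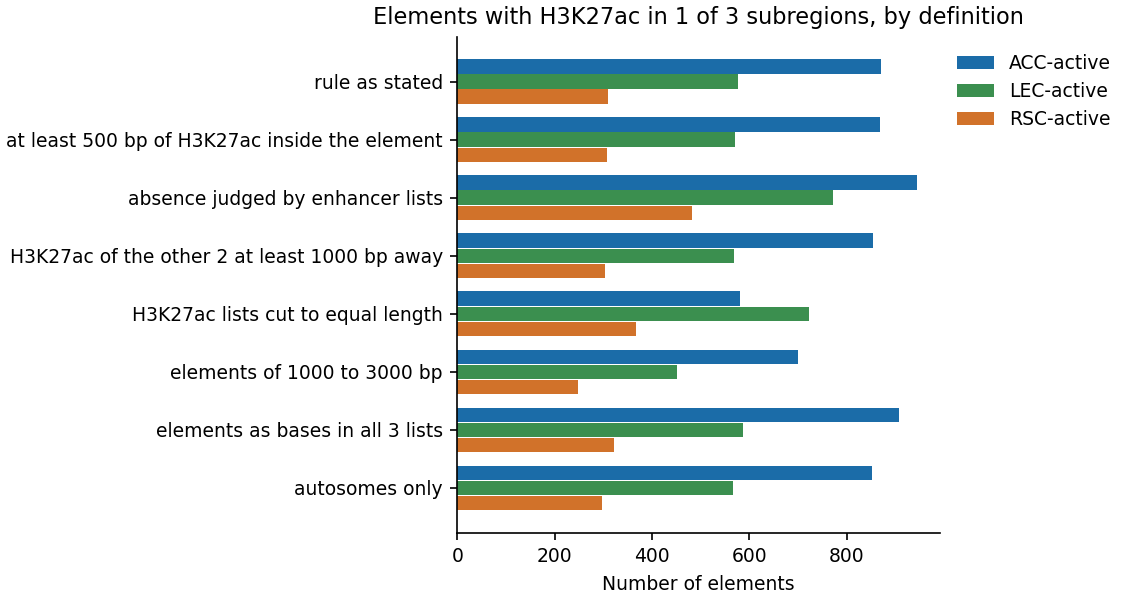
Number of elements (horizontal axis) with H3K4me2 in ACC, RSC and LEC and H3K27ac in 1 of them, under the rule as stated and 7 alternative definitions. The bars for RSC are shortest throughout, from 248 to 482, and the ACC bar is longest except with lists of equal length, where LEC reaches 723.

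The choice of elements rarely hung on a narrow overlap. The H3K27ac of the active subregion overlapped an element by 200 bp or less in 2 ACC-active, 1 RSC-active and 1 LEC-active elements, the smallest overlap being 100 bp in a LEC-active one. Just outside the rule, 3 elements with ACC H3K27ac and 1 with LEC H3K27ac were left out for 100 bp or less of H3K27ac from the other two subregions. A larger number fell out because another subregion had a region of its full list there that was not in its enhancer list: 196 elements with LEC, 173 with RSC and 73 with ACC as the sole enhancer list. Counting those as absent, the RSC-active elements rose to 482. At 10 of the 1756 elements the H3K4me2 regions of the 3 subregions formed a chain with no base common to all.

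The median widths of the 3 groups had overlapping intervals under the rule as stated and most other definitions. Some groups separated with absence judged by enhancer lists alone and with lists of equal length. The median was 1875 bp (1800 to 1950) in ACC-active, 1850 bp (1800 to 2000) in RSC-active and 1962.5 bp (1900 to 2050) in LEC-active elements, with order-statistic 95% intervals in brackets. With absence judged by enhancer lists alone, the RSC-active median was 2275 bp (2100 to 2400) and the LEC-active one 2200 bp (2075 to 2325), both above 1925 bp (1875 to 2000) in ACC-active elements. With H3K27ac lists of equal length, the ACC-active median of 2100 bp (2025 to 2200) was above 1925 bp (1850 to 1975) in LEC-active and 1887.5 bp (1800 to 1975) in RSC-active elements. Widths ran from 1000 to 9700 bp. These elements lay between the 2612 without H3K27ac, with a median of 1575 bp, and the 5241 with H3K27ac in all 3 subregions, with a median of 3025 bp. Width and the chance of meeting a region of any list cannot be told apart here.

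The H3K27ac inside the elements came as a single narrow region in nearly every case. One H3K27ac region met the element in 863 of 871 ACC-active, 308 of 309 RSC-active and 572 of 576 LEC-active elements. The median H3K27ac inside the element was 1250 bp in ACC-active, 1250 bp in RSC-active and 1475 bp in LEC-active elements, or 71.4%, 68.6% and 78.3% of the element. The H3K27ac regions involved were narrow for their lists: median widths were 1325 bp in ACC, 1325 bp in RSC and 1600 bp in LEC, against list medians of 2075, 2075 and 2200 bp. The rule left out elements that met H3K27ac of another subregion, which wide regions do more easily. The part of the rule in these widths was not tested. In ACC and RSC, 62.7% and 65.8% of these regions lay wholly inside the H3K4me2 element, and in LEC 50.7%. LEC acetylation thus filled more of its elements: it spanned 18.4% of LEC-active elements from end to end, against 9.99% of ACC-active and 7.77% of RSC-active ones. Few of the H3K27ac regions reached acetylation of the other two subregions beyond the element, 2.84% in ACC, 2.26% in RSC and 2.94% in LEC.

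The widest cases show the pattern at single sites, with coordinates in mm9. The ACC-active element with the most H3K27ac, chr9:48593226-48602050, had 7500 bp of ACC H3K27ac and none of RSC or LEC, while its H3K4me2 was widest in RSC at 8825 bp, with 3275 bp in ACC and 2850 bp in LEC. MEC had 2650 bp of H3K27ac there. At chr10:82643826-82651275 ACC had 7450 bp of both marks, and H3K4me2 covered 3900 bp in RSC and 4000 bp in LEC. At chr1:183304501-183313700 ACC H3K27ac covered 7400 bp. ACC H3K4me2 spanned all 9200 bp there, with 1825 bp in RSC and 2900 bp in LEC. In 2 of these 3 elements the broad acetylation came with the broadest H3K4me2, and at the first it did not.

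The leading RSC-active element was chr2:43638801-43645100, with 6275 bp of RSC H3K27ac. H3K4me2 there covered 6150 bp in RSC, 6075 bp in ACC and 900 bp in LEC. The next, chr16:45999151-46002800, had RSC H3K27ac over its full 3650 bp and H3K4me2 over 3500 bp in RSC, 3150 bp in ACC and 1500 bp in LEC. In both, ACC lacked H3K27ac in spite of H3K4me2 nearly as wide as in RSC. The third, chr11:107225001-107228600, had 3475 bp of RSC H3K27ac. Its H3K4me2 was wider in RSC, at 3275 bp, than in ACC at 2550 bp and LEC at 2450 bp.

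Among LEC-active elements, chr13:46133551-46139675 had the most H3K27ac at 6100 bp. H3K4me2 covered 6100 bp in ACC and 6125 bp in LEC there, and 1850 bp in RSC. MEC also had 4325 bp of H3K27ac in it, the second highest among LEC-active elements, and 750 bp of H3K4me2. At chr7:76633251-76639225 LEC had 5850 bp of H3K27ac and 5975 bp of H3K4me2, with H3K4me2 over 1500 bp in ACC and 1550 bp in RSC. In the first, H3K4me2 of ACC and LEC differed by 25 bp while ACC had no H3K27ac, and in the second both marks were broadest in LEC, with no H3K27ac in MEC. The third, chr6:81936576-81942125, had LEC H3K27ac over all 5550 bp and 1875 bp of MEC H3K27ac. H3K4me2 covered 5525 bp in ACC, 5125 bp in LEC and 3775 bp in RSC there. No annotation in mm9 was used, so no gene or sequence is given for any position.

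**Figure D2:**
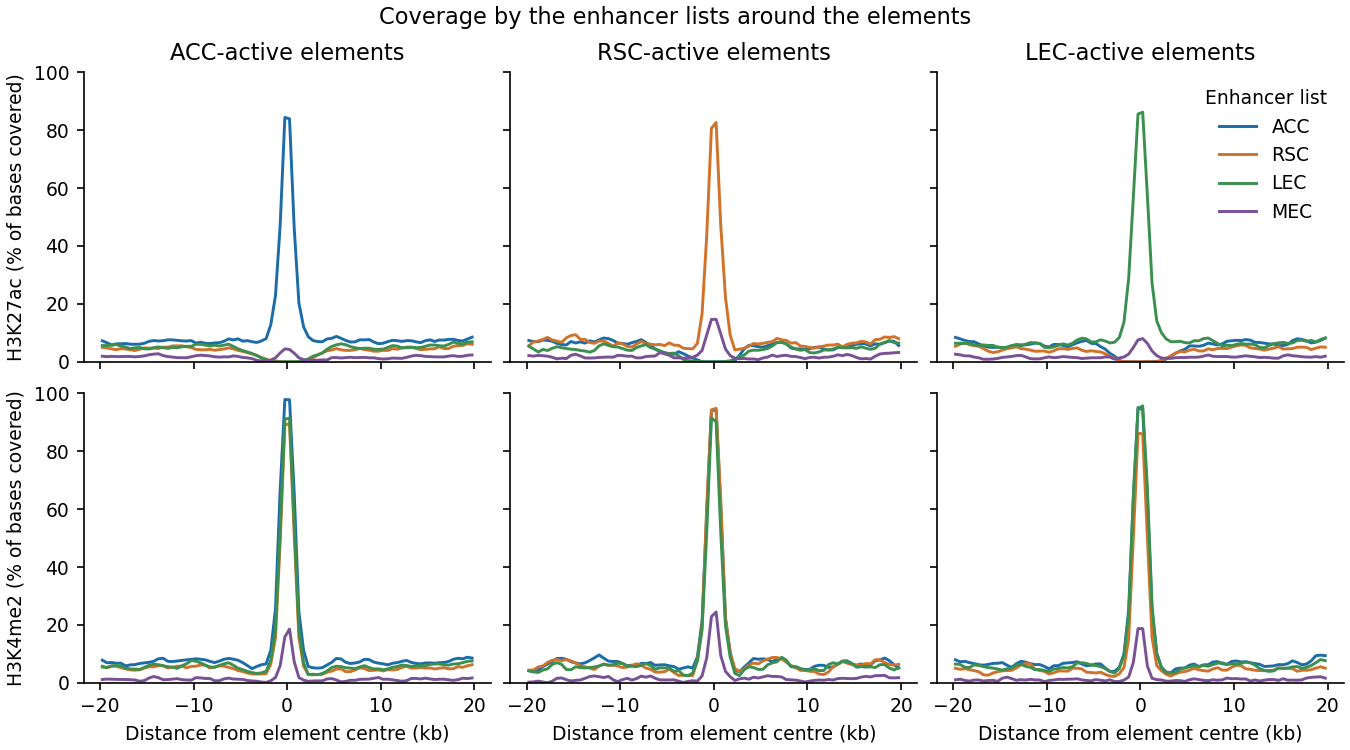
Percentage of bases covered by the enhancer lists of each subregion (vertical axis, windows of 500 bp) against distance from the element centre in kb, for ACC-active, RSC-active and LEC-active elements. H3K27ac of the active subregion peaks at the centre where the other two are at 0 by the rule, H3K4me2 of ACC, RSC and LEC peaks together, and MEC H3K27ac is highest at RSC-active centres, at 14.6% and 14.7% in the 2 central windows.

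H3K4me2, although present in all 3 subregions, tended to be widest where H3K27ac was listed. RSC had the most H3K4me2 bases in 40.5% (35.1 to 46.0) of RSC-active elements, against 19.5% of all 13987 elements. LEC had the most in 47.9% (43.9 to 52.0) of LEC-active elements, against 28.8% of all. In ACC the gap over all widths was small: ACC had the most in 52.0% (48.7 to 55.3) of ACC-active elements and in 47.4% of all. It was larger within the width classes up to 4000 bp, given below. The ACC lead was smaller in the other groups, at 31.4% (26.5 to 36.8) of RSC-active and 35.9% (32.1 to 39.9) of LEC-active elements.

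Median H3K4me2 bases per element gave the same picture. RSC-active elements had 1625 bp in RSC, 1550 bp in ACC and 1475 bp in LEC, where all elements had 1750, 2050 and 1825 bp. LEC-active elements had 1725 bp in LEC, 1675 bp in ACC and 1425 bp in RSC. ACC-active elements had 1700 bp in ACC, 1500 bp in LEC and 1450 bp in RSC, each below its median over all elements. The own lead also stood in elements under 2000 bp, at 45.3% (38.0 to 52.8) for RSC in RSC-active, 49.2% (43.5 to 54.8) for LEC in LEC-active and 44.3% (39.9 to 48.8) for ACC in ACC-active elements. Over all elements of that width the shares were 21.6%, 32.9% and 37.8% in the same order. In RSC-active elements of 2000 to 4000 bp, RSC led in 35.1% (26.9 to 44.2) and ACC in 36.8% (28.5 to 46.0), so the RSC lead did not extend to them, although RSC led in 19.5% of all elements of that width. At this width ACC led in 60.8% (55.4 to 66.0) of ACC-active elements, against 50.3% of all. LEC led in 48.3% (41.9 to 54.7) of LEC-active elements, against 27.4% of all. Over 4000 bp ACC led most often in every group: in 13 of 25 RSC-active elements (52.0%, 33.5 to 70.0) against 8 for RSC (32.0%, 17.2 to 51.6), and in 25 of 51 LEC-active elements (49.0%, 35.9 to 62.3) against 20 for LEC (39.2%, 27.03 to 52.9). In ACC-active elements over 4000 bp ACC led in 63.4% (51.8 to 73.6). Over all elements of that width ACC led in 58.9%, RSC in 15.8% and LEC in 24.3%.

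**Figure D3:**
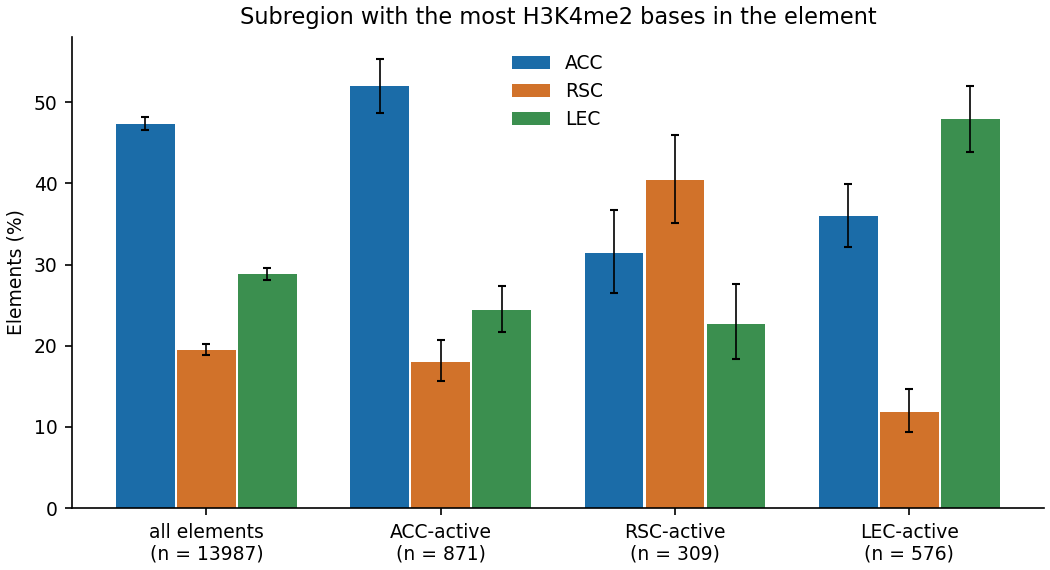
Percentage of elements (vertical axis) in which ACC, RSC or LEC has the most H3K4me2 bases, for all 13987 elements and the 3 groups; error bars are Wilson 95% intervals and ties are left out. The RSC bar rises from 19.5% over all elements to 40.5% in RSC-active ones, and the LEC bar from 28.8% to 47.9% in LEC-active ones.

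MEC, whose lists did not enter the choice, carried H3K27ac at RSC-active elements more often than at the others. Its full H3K27ac list overlapped 54 of 309 RSC-active elements (17.5%, 13.6 to 22.1), 54 of 576 LEC-active elements (9.38%, 7.26 to 12.0) and 49 of 871 ACC-active elements (5.63%, 4.28 to 7.36), where it overlapped 29.9% of all 13987 elements. RSC-active exceeded ACC-active by 11.9 percentage points (Newcombe 95% interval 7.65 to 16.7) and LEC-active by 8.10 points (3.44 to 13.2), and LEC-active exceeded ACC-active by 3.75 points (1.01 to 6.73). Of 6 such differences over the 2 marks, none was adjusted for the others, and elements are not replicates, so the intervals describe these lists. The full MEC H3K27ac list held 22848 regions, against 41584 in RSC, 42136 in LEC and 48266 in ACC. How far this lowered the MEC shares was not tested.

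In every group MEC acetylation was below its share in all elements, and it rose with the number of other subregions that had H3K27ac. It was 1.65% (1.22 to 2.21) where none of the 3 had it, 8.94% (7.69 to 10.4) over the 1756 elements with 1, 23.7% (22.2 to 25.2) with 2 and 48.5% (47.2 to 49.9) with all 3. RSC also marked the higher values among the 3120 elements with 2: MEC overlapped 40.8% (36.8 to 44.9) of those with RSC and LEC, 27.2% (24.6 to 30.0) with ACC and RSC, and 14.8% (13.1 to 16.7) with ACC and LEC.

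The RSC excess in MEC depended on element width. In elements of 2000 to 4000 bp MEC H3K27ac overlapped 25.4% (18.3 to 34.1) of RSC-active, 6.96% (4.33 to 11.0) of LEC-active and 6.79% (4.53 to 10.1) of ACC-active elements. In elements under 2000 bp it was 12.4% (8.22 to 18.1) in RSC-active and 10.2% (7.22 to 14.1) in LEC-active, a difference of 2.18 points whose interval of -3.55 to 8.69 includes no difference, with 4.62% (3.07 to 6.90) in ACC-active. Over 4000 bp the numbers were small, 4 of 25 RSC-active, 8 of 51 LEC-active and 5 of 71 ACC-active elements. Where regions outside the enhancer lists of the other two subregions did not count as presence, the shares were 27.8% in RSC-active and 23.1% in LEC-active elements, against 8.16% in ACC-active.

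Where MEC did carry H3K27ac, it nearly always shared bases with that of the active subregion, which the widths leave little room to avoid. The regions shared bases in 53 of 54 RSC-active, 54 of 54 LEC-active and 47 of 49 ACC-active elements, with medians of 1275, 1450 and 1250 bp in common. In the same order, these elements had median widths of 2312.5, 1900 and 2150 bp. MEC H3K27ac covered a median of 1437.5, 1512.5 and 1475 bp of them, and that of the active subregion 1650, 1725 and 1675 bp. Sharing beyond what such widths bring was not tested. At chr10:86569751-86572800, RSC and MEC each had 2950 bp of H3K27ac within a 3050 bp RSC-active element, while H3K4me2 covered 3000 bp in LEC, 2825 bp in RSC, 2750 bp in ACC and 500 bp in MEC. At chr6:86864376-86869775, a LEC-active element, H3K27ac covered 3975 bp in LEC and 4925 bp in MEC. At chr5:19250251-19254125, an ACC-active element, it covered 3600 bp in ACC and 3550 bp in MEC, and H3K4me2 covered 2725 bp in MEC.

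Over all widths the MEC H3K4me2 shares of the groups lay closer together. The full MEC H3K4me2 list overlapped 36.9% (31.7 to 42.4) of RSC-active, 30.9% (27.3 to 34.8) of LEC-active and 29.3% (26.4 to 32.4) of ACC-active elements, against 36.9% of all elements. RSC-active exceeded ACC-active by 7.62 points (1.57 to 13.9), while its difference from LEC-active, 5.99 points (-0.49 to 12.6), and that of LEC-active from ACC-active, 1.63 points (-3.16 to 6.49), had intervals that include no difference. The widths differed in this. Under 2000 bp the shares were 28.8% in RSC-active, 27.5% in LEC-active and 24.6% in ACC-active elements, and at 2000 to 4000 bp 45.6%, 33.0% and 38.0%, with LEC-active below ACC-active. Over 4000 bp, with 25, 51 and 71 elements, they were 52.0%, 41.2% and 21.1%. RSC-active exceeded ACC-active there by 30.9 points (9.43 to 50.5) and LEC-active exceeded it by 20.05 points (3.56 to 35.8), more than the 8.96 points (-3.80 to 28.0) and 8.64 points (-2.63 to 21.6) for MEC H3K27ac. The MEC list rests on 1 library and its regions were narrow. Their median was 1250 bp in the full list used here, against 1875 to 2000 bp in the full lists of ACC, RSC and LEC. In the enhancer lists it was 750 bp, against 1500 to 1600 bp.

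**Figure D4:**
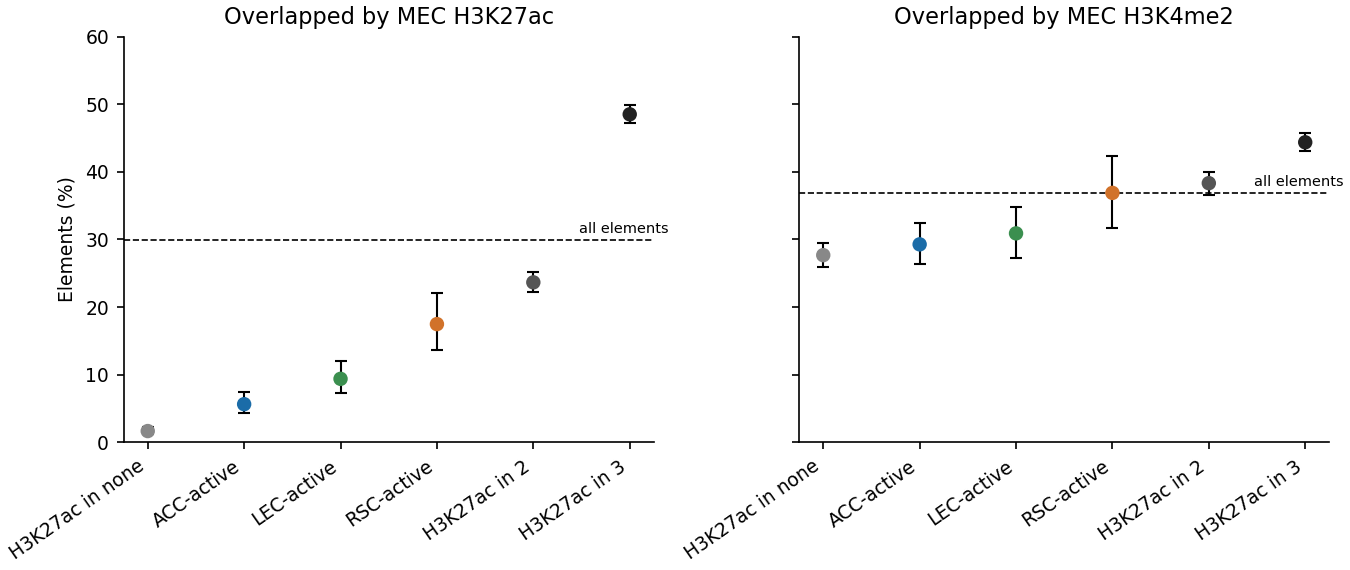
Percentage of elements (vertical axis) overlapped by the full MEC H3K27ac list (left) and MEC H3K4me2 list (right), by the subregions that carry H3K27ac; bars are Wilson 95% intervals and the dashed line is the share over all 13987 elements. For H3K27ac the points climb from 1.65% with none to 48.5% with all 3, and RSC-active elements (17.5%) lie above LEC-active (9.38%) and ACC-active (5.63%) ones.

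The marks went together in MEC, within these elements as over all 13987, where MEC H3K27ac was listed at 42.5% (41.2 to 43.9) of elements with MEC H3K4me2 and 22.5% (21.6 to 23.4) of those without. Among RSC-active elements MEC H3K27ac was listed at 32.5% (24.6 to 41.5) of those with MEC H3K4me2 and 8.72% (5.51 to 13.5) of those without. The corresponding values were 14.0% (9.70 to 19.9) and 7.29% (5.12 to 10.3) in LEC-active and 11.4% (8.04 to 15.9) and 3.25% (2.11 to 4.96) in ACC-active elements. Wider elements meet both lists more easily, and the part of width in this was not tested. MEC H3K4me2 without MEC H3K27ac, the state that ACC, RSC and LEC show in 2 of 3 by the rule, was found at 24.9% (20.4 to 30.0) of RSC-active, 26.6% (23.1 to 30.3) of LEC-active and 25.9% (23.1 to 29.0) of ACC-active elements. It was found at 21.2% (20.5 to 21.9) of all elements and at 26.9% (25.2 to 28.6) of those with H3K27ac in none of the 3, so the groups were close to the latter. Neither MEC mark was listed at 57.6% of RSC-active, 64.1% of LEC-active and 68.4% of ACC-active elements, against 48.9% of all elements and 71.5% of those with H3K27ac in none. For each mark the full MEC list was the shortest, so a missing region need not mean that MEC lacked the mark.

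The surroundings of the elements held fewer H3K27ac regions than those of an average element and more than those of elements with H3K27ac in none. The deficit against the average was least for the active subregion's own list. Within 50 kb on either side, regions touching the element not counted, RSC-active elements had a mean of 2.07 RSC H3K27ac enhancer regions, 0.89 times the mean over all 13987 elements. The ratio was 0.74 for ACC, 0.67 for LEC and 0.71 for MEC regions. Around ACC-active elements the ratio was 0.82 for ACC, 0.74 for RSC, 0.78 for LEC and 0.56 for MEC regions. Around LEC-active elements it was 0.83 for LEC, 0.79 for ACC, 0.72 for RSC and 0.59 for MEC regions. The own list also had the highest ratio among ACC, RSC and LEC within 10 kb and within 200 kb in all 3 groups. MEC regions were less depleted around RSC-active elements than around the others at the 3 distances except 10 kb, where LEC-active elements had 0.55 and RSC-active ones 0.52.

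In plain numbers of regions, where the longer ACC list counts for more, the own list exceeded the mean of the other two by 0.454 regions per element (normal 95% interval over elements 0.373 to 0.534) in ACC-active and 0.265 (0.113 to 0.417) in RSC-active elements. In LEC-active elements the excess was 0.0469 (-0.0571 to 0.151), and within 200 kb it turned to -0.0929. The same lists chose the elements, and elements near each other share flanks. The intervals therefore describe these lists and are not a test. The excess depended on the lists. With absence judged by enhancer lists alone it was 0.0851 (-0.0491 to 0.219) in RSC-active elements, an interval that includes none, and 0.174 (0.0627 to 0.284) in LEC-active ones. With lists of equal length it was 0.376 (0.236 to 0.515) in RSC-active, 0.236 (0.146 to 0.325) in LEC-active and 0.189 (0.0918 to 0.286) in ACC-active elements, so that ACC was lowest. For H3K4me2 the own-list ratios within 50 kb were 0.89 in ACC-active, 0.85 in RSC-active and 0.85 in LEC-active elements. The ratio was thus nearer to 1 than for H3K27ac in ACC-active and LEC-active elements, and farther from it in RSC-active ones. Around the groups, the MEC H3K4me2 ratio was 0.99 around RSC-active, 0.86 around ACC-active and 0.82 around LEC-active elements.

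**Figure D5:**
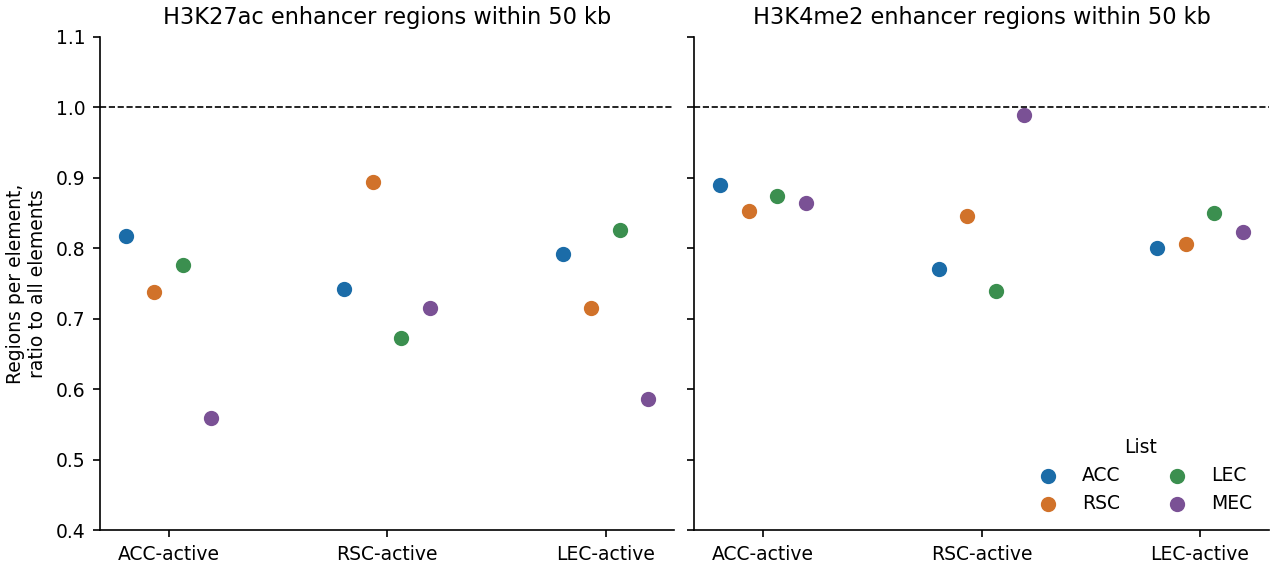
Mean number of H3K27ac (left) and H3K4me2 (right) enhancer regions within 50 kb of an element, as a ratio to the mean over all 13987 elements (vertical axis from 0.4, dashed line at 1), for each group and list. In the H3K27ac panel the active subregion's own list is the highest point in each group, at 0.82, 0.89 and 0.83, and MEC is at 0.71 in RSC-active elements.

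Acetylation of the other 2 subregions lay at similar distances in the 3 groups, and distances from elements outside the groups were not measured. The nearest region of the full H3K27ac lists of those 2 subregions lay a median of 10350 bp from the edge of ACC-active, 10500 bp from RSC-active and 9562.5 bp from LEC-active elements. It lay within 1 kb in 2.18%, 1.94% and 1.39% of the elements, and beyond 50 kb in 12.1%, 12.3% and 13.5%. Regions of the full list that are not in the enhancer list, here called excluded regions, were farther away than from an average element. From ACC-active elements the nearest ACC H3K27ac excluded region was a median of 39.6 kb away, against 30.1 kb over all elements. The medians were 47.5 against 36.6 kb for RSC and 43.9 against 33.2 kb for LEC. Elements with H3K27ac in none of the 3 subregions were farther still, at 53.8, 65.9 and 53.3 kb.

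Along the genome, most members of a group had no other member of it within 100 kb. Neighbours of elements outside the groups were not measured, so these shares have no background. Within 100 kb, between midpoints, 148 of 871 ACC-active elements (17.0%, 14.6 to 19.6), 68 of 576 LEC-active (11.8%, 9.42 to 14.7) and 25 of 309 RSC-active elements (8.09%, 5.54 to 11.7) had another of the same group. The groups differ in size, and so in possible neighbours. Scaled to 1000 possible neighbours, the RSC-active share was 26.3% for its own group, 16.3% for ACC-active and 13.5% for LEC-active neighbours. For LEC-active elements it was 20.5% for their own, 15.3% for ACC-active and 12.9% for RSC-active neighbours. For ACC-active elements it was 19.5% for their own, 19.7% for RSC-active and 16.1% for LEC-active neighbours. Own-group neighbours thus had the highest value for RSC and LEC by this measure. For ACC the own value and that for RSC-active neighbours were close. A share of elements with any neighbour grows less than in proportion to group size, so this linear scaling lowers the values for larger groups. The order of those ACC values can therefore not be read from it. The scaled values carry no interval and rest on few elements, 25 for the RSC-active own group. Their order was not tested.

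Chains of elements with midpoints up to 100 kb apart were short. The longest was ACC-active, chr5:149784201-149965050, with 4 members among 5 elements that carry H3K4me2 in all 3 subregions. ACC had 7 H3K27ac enhancer regions in the span, RSC 3, LEC 2 and MEC 1, while H3K4me2 regions numbered 7, 9, 8 and 1. In RSC 1 chain had more than 2 members, chr2:169432001-169562650, with 3 RSC-active and 1 LEC-active elements. RSC had 10 H3K27ac regions there, ACC 4, LEC 4 and MEC 3, but H3K4me2 regions numbered 10 in each of ACC, RSC and LEC, and 6 in MEC. No LEC-active chain exceeded 2 members, and ACC had 7 chains of 3 or more.

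All autosomes and chromosome X carried members of each group. Members made up from 9.71% of the elements on chromosome 11 to 15.1% on chromosome 5. RSC-active elements were the most X-linked, with 12 of 309 (3.88%, 2.24 to 6.66) on X, against 20 of 871 ACC-active (2.30%, 1.49 to 3.52), 9 of 576 LEC-active (1.56%, 0.82 to 2.94) and 2.08% of all elements, with intervals that overlap.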

How the data were processed

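Histone marks were mapped in adult mouse cortex, and the analysis started from the authors' deposited lists of enriched regions in mm9 (16 of 17 files, since 1 repeats another). Bowtie 1.1.1 and bedtools 2.19.0 are named per the submitters' processing notes. Peak caller, threshold and the joining of replicates: not given in the sources used here. Depth is unknown. Deposited scores, where a list had them, equalled region widths, so the lists used here hold no enrichment values, and only positions, on a grid of 25 bp, were used.

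Overlaps were computed with Python 3.11.15, numpy 2.4.6, scipy 1.17.1 and pandas 2.3.3, and figures with matplotlib 3.10.9. The rule was tested on simulated data, and merging gave as many elements as bedtools 2.31.1 (47187). Members and measures were chosen with earlier results of these data known. Sites named were those with the most H3K27ac of the active subregion or of MEC in each group, and the chains with the most members, and not all are described. The lists hold no values per library, so no p-value was computed.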

Additional observations from a re-analysis of the deposited data

How the results depend on the processing

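Libraries could not be left out, since each list joins those of its group. No paired analysis was possible because the lists carry no values per library. Of 183 values under 12 alternative settings, 137 stayed within the interval of the reported value or within 1.5 times a reported count. The order RSC, LEC, ACC in MEC overlap held in 8 of 8 settings for each mark. Requiring 500 bp of H3K27ac inside the element, a margin of 1000 bp or autosomes left every count within 1.5 times. H3K4me2 leads could not be recomputed on bases common to all 3 lists, which are equal by construction.

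With absence judged by enhancer lists alone, RSC-active elements numbered 482. Shares with H3K27ac in a single subregion were 10.6%, 6.26% and 9.17% (ACC, RSC, LEC). MEC H3K27ac overlapped 8.16% of ACC-active, 27.8% of RSC-active and 23.1% of LEC-active elements. Median widths were 2275 bp in RSC-active and 2200 bp in LEC-active elements, own H3K4me2 leads 29.3% and 38.9%, own-group neighbours 14.7% and 18.8%, and the flanking excess 0.0851 (-0.0491 to 0.219) and 0.174 (0.0627 to 0.284) regions, so that its interval came to include none in RSC-active elements and ceased to in LEC-active ones. With H3K27ac lists of equal length there were 580 ACC-active elements, with a median of 2100 bp and an own H3K4me2 lead of 59.1%. Single-subregion shares were 7.01%, 4.86% and 8.59% (ACC, RSC, LEC), and the flanking excess was 0.19 in ACC-active and 0.24 in LEC-active elements.

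In elements of 1000 to 3000 bp the single-subregion shares were 13.5%, 5.97% and 9.64% in ACC, RSC and LEC, with medians of 1725, 1750 and 1775 bp. Own-group neighbours fell to 13.0% in ACC-active and 4.84% in RSC-active elements. As bases common to all 3 lists, elements had medians of 1250, 1275 and 1287.5 bp, and 12.4% of RSC-active ones had an own-group neighbour. Within 20 kb own-group neighbours were found for 2.87% of ACC-active, 3.88% of RSC-active and 3.47% of LEC-active elements, and within 500 kb for 46.6%, 20.7% and 36.1%. The flanking excess was 0.11 in ACC-active and 0.0761 in RSC-active elements within 10 kb. Within 200 kb it was 1.56 and 0.49, and in LEC-active elements it reversed to -0.0929. Apart from the changes that a shorter list, a narrower width or another distance makes by construction, the cause was not tested.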

Other observations

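MEC also had elements of its own of this kind. At 43 of the 2612 elements with H3K4me2 in ACC, RSC and LEC and H3K27ac in none of them (1.65%, 1.22 to 2.21), the MEC H3K27ac list had a region, with a median of 1300 bp inside the element. MEC H3K4me2 was listed at 21 of the 43 (48.8%, 34.6 to 63.2), so the 4 subregions shared H3K4me2 there and MEC alone had H3K27ac. It was listed at 27.7% of the 2612 and at 36.9% of all elements. The other 22 of the 43 had no MEC H3K4me2. The widest, chosen after the values were seen, was chr2:57465251-57469975, where MEC H3K27ac covered all 4725 bp and H3K4me2 covered 4700 bp in ACC, 4725 bp in RSC, 4725 bp in LEC and 3300 bp in MEC. Another lay nearby at chr2:57549201-57552175, with MEC H3K27ac over all 2975 bp and H3K4me2 over 2925 bp in ACC, 2875 bp in RSC, 2775 bp in LEC and 2825 bp in MEC. At chr5:129382426-129386125 MEC H3K27ac covered 3400 of 3700 bp without any MEC H3K4me2. H3K4me2 there covered 3675 bp in ACC, 2800 bp in RSC and 3550 bp in LEC. The number is small beside the other groups, and the MEC H3K27ac list was the shortest of the 4.

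RSC-active elements with MEC H3K27ac had their widest H3K4me2 in RSC in 17 of 54 cases (31.5%, 20.7 to 44.7), against 40.5% of all RSC-active elements. For LEC-active elements it was 20 of 54 (37.0%, 25.4 to 50.4), against 47.9%, and for ACC-active elements 14 of 49 (28.6%, 17.8 to 42.4), against 52.0%. All 3 shares were lower than in the whole group, which includes these elements, and the interval lay below the share of the whole group in ACC-active elements alone. Their median widths were 2312.5 bp in RSC-active and 2150 bp in ACC-active elements, against 1850 and 1875 bp in the whole groups. In LEC-active elements it was 1900 against 1962.5 bp. The part of width in these shares was not tested.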
